A study of Sus scrofa with 3 samples.

Results

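Integrins, cadherins and claudins, the receptor families through which cells hold on to matrix and to each other, were examined in visceral adipose tissue (VAT) of male pigs. The genes were those of type mRNA whose deposited names are ITGA, ITGB, CDH or CLDN followed by their number or letter. This gave 64 genes out of 22826 mRNA genes, with 15 integrin alpha, 8 integrin beta, 19 cadherin and 22 claudin genes. No measured value entered the choice.

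The animals were Chinese Wuzhishan miniature pigs aged 6 to 7 months at purchase, and every group was kept for 12 weeks on a diet rich in fat and cholesterol (HFC). IM pigs were intact males that received skin incisions alone, CM pigs were castrated males, and CMT pigs were castrated males injected each week with 10 mg/kg testosterone propionate. Castration removes every product of the testis, and CMT pigs received the androgen alone in return. VAT was retroperitoneal fat. Equal amounts of RNA from between 4 and 6 pigs of a group were mixed into 1 library per group. The 3 groups therefore hold 1 library each, and no difference has a replicate check. Differences between pigs cannot be measured here and can still enter a difference between libraries.

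An integrin is a pair of an alpha and a beta chain that spans the membrane, binds matrix proteins or receptors of other cells on the outside and is tied to actin on the inside. The alpha chain largely sets the ligand: some alpha chains bind collagen, some laminin, some the RGD tripeptide of fibronectin and vitronectin, and a few occur mainly on leukocytes. Cadherins bind their own kind on the neighbouring cell in the presence of calcium, and most are linked to actin by catenins. Claudins form the strands of tight junctions and decide which ions and solutes pass between cells. In fat, these families are used by adipocytes within their basement membrane, by fibroblasts and progenitors in the stroma, by vessels, by immune cells and by the mesothelium on the surface of the depot.

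Levels are given in UQRPKM, which is reads per kilobase of gene divided by an upper quartile instead of the total, so levels of different genes can be compared per length. The values resolve into whole reads, with 16611931 for IM, 15561124 for CM and 15106608 for CMT. The integrin, cadherin and claudin genes held 24796, 21970 and 22285 of these reads. That is 0.167%, 0.162% and 0.166% of the reads on mRNA genes, respectively. A gene was called higher or lower at a 1.5-fold difference with at least 1 UQRPKM in both libraries. Each log2 ratio has an exact 95% interval from the reads, which covers counting error only, because reads of an amplified library are not independent molecules and pigs were pooled.

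The labelled tissue was checked against 10 adipocyte markers. Of these, 8 were found by name, CIDEA was listed at 0, and ADIPOQ had 74928, 69193 and 63873 UQRPKM in the IM, CM and CMT libraries. Transcripts of other tissues differed between the libraries. The hepatocyte list, with 12 of 13 genes found and none at 0 throughout, summed to 2568, 10395 and 1752 UQRPKM in the IM, CM and CMT libraries, and its ALB alone had 2.61, 2910.1 and 4.00. The skeletal muscle list, with 14 of 14 genes found and TNNT3, CKM, MB and PAX7 at 0, summed to 102, 85.8 and 7048. The mesothelial and epithelial list, with 11 of 12 genes found and LRRN4 at 0, summed to 243, 298 and 746. In the plot of marker levels, these lists and the neutrophil and platelet lists are those whose libraries lie far apart.

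**Figure D1:**
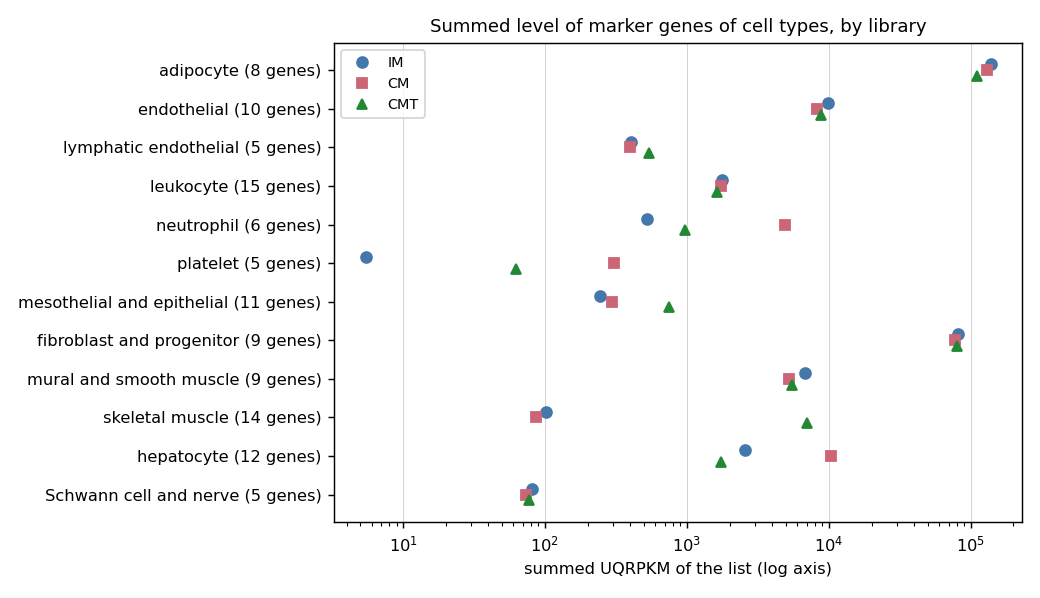
Summed UQRPKM (log axis) of marker lists for 12 cell types in the IM (circle), CM (square) and CMT (triangle) library, with no error bars because each group is 1 library. The hepatocyte sum is highest in CM at 10395, the skeletal muscle sum is highest in CMT at 7048, and the endothelial sum stays between 8315 and 9894.

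Most of these adhesion genes were measured at low levels, and CDH13 and CLDN5 carried most of the cadherin and claudin signal. Of the 64 genes, 43 were above 0 in all libraries, 9 in only some of them and 12 in none, and 42 reached 1 UQRPKM in every library. All 15 integrin alpha genes reached that level, against 7 of 8 integrin beta genes, 11 of 19 cadherins and 9 of 22 claudins. CDH13 held 89.3% ± 0.41 (counting SE) of the summed cadherin level in IM, 89.2% ± 0.43 in CM and 85.0% ± 0.53 in CMT. CLDN5 held 92.0% ± 0.47, 93.6% ± 0.44 and 90.7% ± 0.53 of the summed claudin level. Among the integrin beta genes, ITGB5 and ITGB1 together made up most of the sum in each library, with shares of 43.6% and 39.2% in IM. The alpha chains were spread more evenly, and ITGA5, the highest of them, held 33.5% of their sum in IM.

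**Figure D2:**
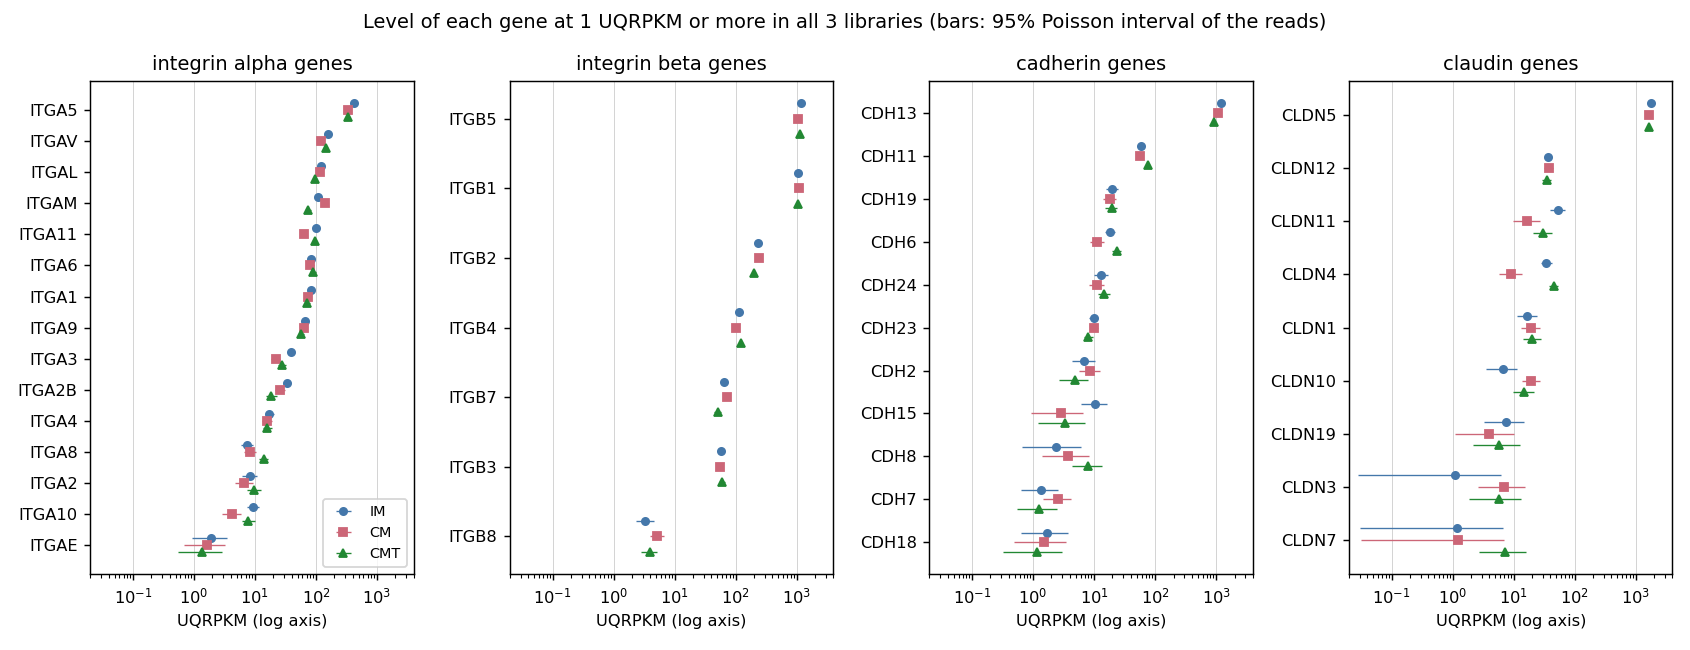
UQRPKM (log axis) of the 42 genes at 1 UQRPKM or more in every library, by family, for IM (circle), CM (square) and CMT (triangle), with 95% Poisson intervals of the reads as bars. CLDN5, CDH13, ITGB5 and ITGB1 stand above all other genes, and the bars widen towards the foot of each panel, where CLDN7 rests on 1, 1 and 6 reads.

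Past 1.5-fold, 13 of the 42 measured genes differed between CM and IM, 8 lower and 5 higher in CM. Over all mRNA genes, 18.8% were called in that comparison, 10.4% lower and 8.38% higher. In CMT against CM, 10 were called, 7 higher and 3 lower, beside a background of 19.5% in all, 9.53% higher and 9.97% lower. In CMT against IM, 8 were called, 5 higher and 3 lower, beside 20.7% in all, 8.81% higher and 11.9% lower. Calls came more often from genes with few reads. Of the 14 genes under 100 reads over the pair of libraries in CM versus IM, 8 were called, with a background of 46.6%. It was 5 of 13 in CMT against CM (background 46.9%) and 6 of 13 in CMT against IM (background 47.6%). Of the 28 genes with 100 reads or more, 5 were called, with a background of 9.51%, and all 5 were lower in CM, where 5.66% of all such genes were lower and 3.85% higher. With 100 reads or more, 5 of 29 were called in CMT against CM, 4 higher and 1 lower, beside 10.4% in all, 4.83% higher and 5.53% lower. In CMT against IM it was 2 of 29, 1 in each direction, beside 11.9% in all, 4.36% higher and 7.51% lower. The median log2 ratio of the 42 genes was -0.12 for CM against IM, where that of all tested mRNA genes was -0.06. It was 0.04 beside -0.02 for CMT against CM, and -0.09 beside -0.08 for CMT against IM.

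**Figure D3:**
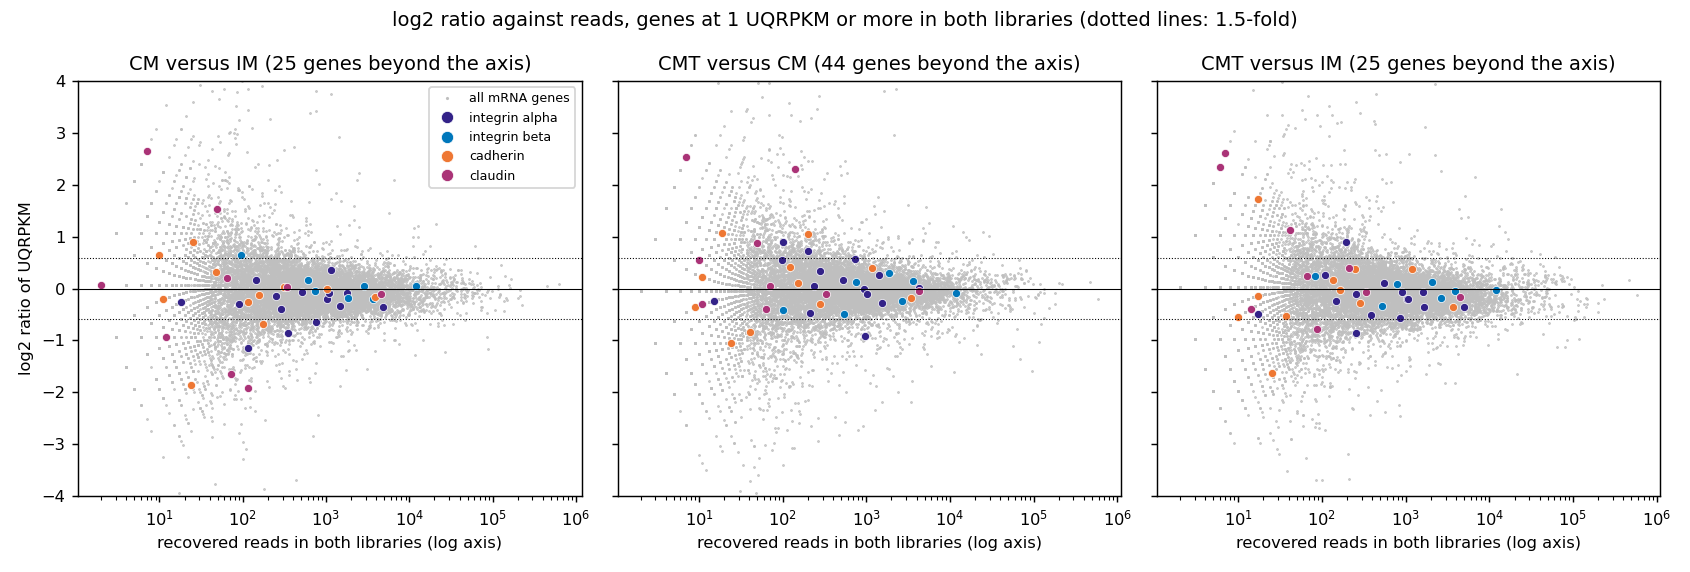
log2 ratio of UQRPKM against the recovered reads of both libraries (log axis) for all mRNA genes at 1 UQRPKM or more in both (grey) and for integrin, cadherin and claudin genes (coloured), 1 panel per comparison, with dotted lines at 1.5-fold and genes beyond 4 on the log2 scale left off. Most coloured points with many reads lie between the dotted lines, and CLDN4 is the farthest of those above 100 reads in the left and middle panels.

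The integrin alpha genes as a family were lower in CM than in IM. Their 15 log2 ratios had a median of -0.25, and 13 of the 15 were below 0, where 56.8% of all tested mRNA genes were. The summed alpha level was 1254, 1068 and 1057 UQRPKM in the IM, CM and CMT libraries, which gave a log2 ratio of -0.23 (95% counting interval -0.28 to -0.18) in CM versus IM and -0.25 (-0.30 to -0.20) in CMT versus IM. The summed beta level moved less, from 2728 to 2621 and 2638, with -0.06 (-0.10 to -0.01) and -0.05 (-0.09 to -0.00). In a bulk library, fewer cells of a type and less RNA per cell cannot be told apart. Scaling by the total or by the median ratio over genes left the alpha medians below 0 in both comparisons with IM, whereas the beta median in CMT versus IM went from -0.03 to 0.01 and 0.05.

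The sum of the collagen receptors was low in CM, and CMT stood near IM. ITGA11, the collagen receptor of fibroblasts, had 98.6, 63.4 and 94.6 UQRPKM in the IM, CM and CMT libraries, from 467, 286 and 439 reads. CM was the low library, with a log2 ratio of -0.64 (-0.86 to -0.42) in CM versus IM and 0.58 (0.36 to 0.80) in CMT versus CM, the latter just under 1.5-fold. The call in CM versus IM was lost with median-ratio scaling, at -0.58, while both other scalings brought CMT versus CM past 1.5-fold, at 0.60. ITGA10, a collagen receptor best known from cartilage, had 9.20, 4.17 and 7.77 UQRPKM from 81, 35 and 67 reads. CM was again lowest, with log2 ratios of -1.14 (-1.76 to -0.55) and 0.90 (0.29 to 1.53). ITGA1, which binds collagen IV of basement membranes, had 83.4, 72.8 and 72.5 UQRPKM and stayed low in CMT, with -0.20 (-0.38 to -0.02) in both comparisons with IM. ITGA2 had 8.15, 6.67 and 9.81 UQRPKM from at most 59 reads, and all of its intervals included 0. The 4 collagen receptors summed to 199, 147 and 185 UQRPKM, a log2 ratio of -0.44 (-0.57 to -0.31) for CM and -0.11 (-0.23 to 0.01) for CMT against IM, and 0.33 (0.19 to 0.46) for CMT against CM. Beside this, the fibroblast and progenitor list, with 9 of 9 genes found, summed to 81193, 77733 and 79679. Its median log2 ratio in CM versus IM was -0.05, 4 of its 9 genes were above 0, and COL1A1 alone was called, lower at 4453, 2235 and 2580.1 UQRPKM. The part of stromal cell number in the result was not tested.

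Laminin receptors differed from each other. ITGA3 had 39.4, 21.9 and 27.7 UQRPKM in IM, CM and CMT from 227, 120 and 156 reads. IM stood above both castrated groups, with -0.85 (-1.18 to -0.52) in CM versus IM and -0.51 (-0.82 to -0.21) in CMT versus IM. ITGA6, which pairs with ITGB1 or ITGB4, had 84.4, 80.5 and 90.3 UQRPKM, and its intervals included 0 in all comparisons. ITGB4, the laminin chain of hemidesmosomes, had 115, 101 and 125 UQRPKM. Its CM library was the lowest, with -0.18 (-0.32 to -0.05) in CM versus IM and 0.31 (0.18 to 0.44) in CMT versus CM, both under 1.5-fold.

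Of the RGD-binding chains, the abundant members were lower in CM than in IM by less than 1.5-fold. ITGA5, the fibronectin receptor chain and the highest alpha gene, had 420.2, 329 and 330.3 UQRPKM in the IM, CM and CMT libraries. Both castrated groups lay below IM, by -0.35 (-0.44 to -0.27) and -0.35 (-0.43 to -0.27) on the log2 scale. ITGAV, which binds vitronectin and latent TGF-beta, had 155, 122 and 147 UQRPKM. It was lower in CM at -0.34 (-0.49 to -0.19) and higher in CMT than in CM at 0.27 (0.12 to 0.42).

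The remaining RGD-binding chains went in opposite directions in CMT. ITGA8, a receptor of mesenchymal and smooth muscle cells, had 7.45, 8.38 and 13.9 UQRPKM from 69, 74 and 126 reads. CMT was the high library, with 0.73 (0.30 to 1.16) against CM and 0.90 (0.46 to 1.34) against IM. ITGA2B, the fibrinogen receptor chain of platelets, had 33.5, 25.6 and 18.5 UQRPKM from 166, 121 and 90 reads. It was lowest in CMT, with -0.85 (-1.24 to -0.48) against IM, -0.39 (-0.74 to -0.04) in CM versus IM and -0.47 (-0.88 to -0.06) in CMT versus CM. The platelet list, with 5 of 5 genes found, summed to 5.44, 306 and 62.3 UQRPKM, an order of libraries that ITGA2B does not share. PPBP accounted for 0, 297 and 58.2 of these sums. The mural and smooth muscle list, with 9 of 9 genes found and MYH11 at 0, summed to 6750.4, 5262 and 5499.9 UQRPKM. This sum was highest in IM and ITGA8 was highest in CMT, but the list was split. Of its 8 tested genes, 1 was called higher in CMT versus CM, at 3.80, and none lower, beside 9.53% and 9.97%. In CMT versus IM, 1 was called higher, at 3.12, and 1 lower, beside 8.81% and 11.9%. The part of mural cells in the ITGA8 values was not tested.

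ITGAM, ITGAL, ITGB2 and ITGB7, all integrin chains of leukocytes, were lowest in CMT. ITGAM, the myeloid chain of complement receptor 3, had 108, 138 and 73.5 UQRPKM in the IM, CM and CMT libraries, from 514, 626 and 342 reads. CM was the high library, and CMT stood at -0.91 (-1.11 to -0.72) against CM. ITGAL, the chain of LFA-1 on lymphocytes and other leukocytes, had 122, 115 and 95.4 UQRPKM, with -0.27 (-0.41 to -0.12) in CMT versus CM. Their shared beta chain ITGB2 had 229, 239 and 202 UQRPKM, with -0.24 (-0.35 to -0.13) in CMT versus CM. ITGB7, which pairs with ITGA4 or ITGAE on lymphocytes, had 65.0, 72.9 and 51.6 UQRPKM and -0.50 (-0.75 to -0.25) in the same comparison.

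Only ITGAM among these passed 1.5-fold, and the balance between chains differed between libraries. The level of ITGAM per ITGAL was 0.891 (95% counting interval 0.800 to 0.992) in IM, 1.20 (1.09 to 1.34) in CM and 0.771 (0.678 to 0.877) in CMT. ITGB2 per summed ITGAL and ITGAM was 0.998 (0.927 to 1.07), 0.942 (0.874 to 1.01) and 1.20 (1.10 to 1.30). These ratios are taken within a library and do not depend on its scaling. They leave out ITGAD and ITGAX, further leukocyte alpha chains listed under LOC identifiers, as does the leukocyte alpha sum. ITGAD had 21.6, 5.66 and 10.6 UQRPKM and ITGAX had 21.9, 12.1 and 22.4, so both were lowest in CM. The ratio of ITGB2 to all of its leukocyte partners was not computed. ITGA4 had 17.1, 15.5 and 16.0 UQRPKM and ITGA9 had 66.2, 62.5 and 57.9, all within 1.5-fold. ITGAE rested on 10, 8 and 7 reads. The leukocyte list, with 15 of 16 genes found and CD163 and CORO1A at 0, summed to 1766, 1730.5 and 1623 UQRPKM. The neutrophil list, with 6 of 6 genes found and CSF3R at 0, summed to 521, 4889 and 977. These sums hide genes that went in opposite directions. In CM versus IM, 2 of 13 tested leukocyte genes were called higher and 1 lower. Of 5 tested neutrophil genes, 3 were called higher and 1 lower, beside 8.38% and 10.4% of all mRNA genes. In CMT versus CM, 3 leukocyte genes were called higher and 3 lower. There, 1 neutrophil gene was called higher and 3 lower, beside 9.53% and 9.97%. The part of immune cell number in the ITGAM result was not tested.

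The common beta chain was the steadiest of the most abundant genes in the deposited values. ITGB1, the partner of most alpha chains, had 1069, 1109 and 1046 UQRPKM in the IM, CM and CMT libraries, and its log2 ratios lay between -0.08 and 0.05. With the median-ratio scaling they lay between -0.07 and 0.12, and those of CLDN5, between -0.08 and -0.03, were steadier. The 11 alpha partners of ITGB1 among these genes summed to 989, 787 and 868 UQRPKM. ITGA7 was not among the genes matched by name, and ITGAV, ITGA6 and ITGA4 also pair with other beta chains but were counted in full. ITGB1 per summed partners was therefore 1.08 (1.04 to 1.12) in IM, 1.41 (1.35 to 1.47) in CM and 1.20 (1.16 to 1.25) in CMT, and the counting intervals of the 3 libraries did not overlap. ITGB5, the vitronectin receptor chain that pairs with alphaV, had 1189.7, 1039 and 1149.8 UQRPKM, with -0.19 (-0.29 to -0.10) in CM versus IM and 0.15 (0.05 to 0.24) in CMT versus CM.

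ITGB3, the partner of both alphaV and the platelet chain, had 56.7, 55.1 and 60.1 UQRPKM with intervals that included 0. ITGB8, which with alphaV activates latent TGF-beta, had 3.30, 5.19 and 3.90 UQRPKM from 38, 57 and 44 reads. It was called higher in CM at 0.65 (0.04 to 1.29), and the exact binomial test on reads, adjusted over all mRNA genes, gave p = 0.087. With a pseudocount of 1 UQRPKM its ratio was 0.53 and the call was lost. ITGB6, an epithelial chain, was listed at 0 in all libraries.

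**Figure D4:**
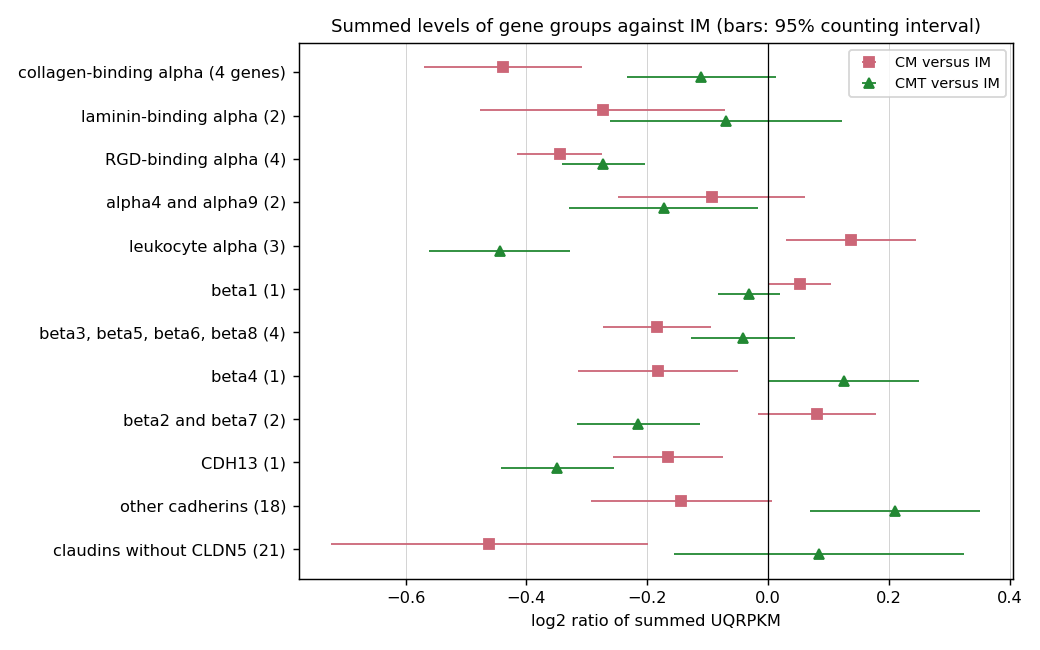
log2 ratio of summed UQRPKM in CM (square) and CMT (triangle) against IM for groups of integrin, cadherin and claudin genes, with 95% counting intervals as bars. The collagen-binding sum is at -0.44 in CM and -0.11 in CMT, and beta1 lies at 0.05 and -0.03. The leukocyte alpha sum, of ITGAL, ITGAM and ITGAE without ITGAD and ITGAX, is at 0.14 in CM and -0.44 in CMT.

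Among the cadherins, CDH13 was far the most abundant and was lower in both castrated groups. T-cadherin, its product, is held by a lipid anchor instead of a membrane-spanning tail and binds adiponectin. CDH13 had 1185, 1056 and 930.2 UQRPKM in the IM, CM and CMT libraries, from 2090, 1775 and 1608 reads. IM was highest and CMT lowest, with -0.17 (-0.26 to -0.07) for CM and -0.35 (-0.44 to -0.25) for CMT against IM, and -0.18 (-0.28 to -0.08) for CMT against CM, all under 1.5-fold. ADIPOQ, which encodes its ligand, had the same order of libraries at 74928, 69193 and 63873 UQRPKM. The adipocyte markers summed to 139265, 129879 and 110415 UQRPKM, and the 10 endothelial markers, all found, to 9894, 8315 and 8811. The part of cell makeup in the CDH13 result was not tested.

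The type II cadherins, a branch named for its binding domain, were higher in CMT as a sum. CDH11, the cadherin of fibroblasts and other mesenchymal cells, had 58.3, 57.6 and 75.4 UQRPKM from 528, 497 and 669 reads. CMT was above the other libraries, by 0.39 (0.22 to 0.56) against CM and 0.37 (0.20 to 0.54) against IM. CDH6, known from kidney, had 18.1, 11.3 and 23.3 UQRPKM from 109, 65 and 138 reads. CM was the low library, with -0.68 (-1.14 to -0.22) in CM versus IM and 1.05 (0.61 to 1.49) in CMT versus CM. CDH8, known from neurons, had 2.41, 3.80 and 8.01 UQRPKM from only 4, 6 and 13 reads, and 1.73 (0.04 to 3.80) in CMT versus IM did not pass the exact binomial test (adjusted p = 0.0785). The 12 type II genes summed to 115, 106 and 148 UQRPKM, with 0.47 (0.32 to 0.63) and 0.36 (0.22 to 0.51) for CMT against CM and IM.

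CDH19, known from Schwann cell precursors, stayed level at 19.6, 17.9 and 19.3 UQRPKM. The Schwann cell and nerve list, with 5 of 6 genes found and 2 at 0, summed to 80.6, 73.2 and 77.2. Its members were less level than its sum. In CM versus IM, 2 of its 3 tested genes were called lower, beside 10.4% of all mRNA genes. In CMT versus IM, 1 of 2 was called lower, beside 11.9%. CDH24 had between 10.97 and 14.6 UQRPKM, with intervals that included 0. CDH9 and CDH10, both known from the nervous system, had 9 reads each in CMT against 0 and 1 for CDH9 and 0 and 0 for CDH10 in IM and CM. A count of 0 allows up to 3 reads, which for CDH10 is 0.678 UQRPKM in IM and 0.712 in CM, below its 2.08 in CMT.

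CDH15 was low in both castrated groups. Its product, M-cadherin, is a classical cadherin of skeletal muscle and its satellite cells. CDH15 had 10.2, 2.83 and 3.30 UQRPKM in the IM, CM and CMT libraries, from 19, 5 and 6 reads. It was 3.62-fold lower in CM and 3.10-fold lower in CMT than in IM, with log2 ratios of -1.86 (-3.63 to -0.39) and -1.63 (-3.25 to -0.25). ACTA1, the actin of skeletal muscle, went the other way in CMT, with 49.8, 39.8 and 3589 UQRPKM. The skeletal muscle list summed highest in CMT and CDH15 was highest in IM, and the part of muscle tissue in the CDH15 values was not tested. A further gene entry, LOC100523671, is also CDH15 in RefSeq and had 0, 2 and 0 reads. CDH2, or N-cadherin, had 6.89, 8.54 and 4.79 UQRPKM from 22, 26 and 15 reads. It was called lower in CMT versus CM by its fold, at -0.83 (-1.86 to 0.14), but all of its intervals included 0. CDH23 had 9.77, 9.93 and 8.07 UQRPKM, with intervals that included 0. CDH7, with 9, 16 and 8 reads, was called higher in CM and lower in CMT versus CM, with intervals from -0.37 to 2.26 and from -2.47 to 0.27. CDH18 and CDH22 rested on at most 6 reads in any library. CDH12, CDH17 and CDH20 had 0 in at least 1 library and at most 4 reads in any. CDH1, the E-cadherin of epithelia, and CDH16 were listed at 0 in all libraries.

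Among the claudins, the endothelial member was abundant and nearly level, while several rarer members differed. CLDN5, which seals endothelial tight junctions, had 1809.8, 1681 and 1624 UQRPKM in the IM, CM and CMT libraries from 2408, 2131 and 2117 reads. It was slightly lower in both castrated groups, by -0.11 (-0.19 to -0.02) and -0.16 (-0.24 to -0.07). Beside it, all 10 endothelial markers had log2 ratios below 0 in CM versus IM, with a median of -0.24. CLDN12, a widely expressed claudin, had 36.6, 37.3 and 34.8 UQRPKM and stayed level. CLDN1, an epithelial barrier claudin, had 16.8, 19.4 and 19.9 UQRPKM from 31, 34 and 36 reads, with intervals that included 0.

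CLDN4 showed the largest difference of any gene here with 100 reads or more. CLDN4, a claudin of epithelial barriers, had 34.4, 9.13 and 45.1 UQRPKM in the IM, CM and CMT libraries, from 91, 23 and 117 reads. CM alone was low. It was 3.77-fold lower than IM, a log2 ratio of -1.91 (-2.64 to -1.24), and CMT was 4.95-fold higher than CM, at 2.31 (1.65 to 3.02). The exact binomial test on reads, adjusted over all mRNA genes, gave p = 5e-09 and 1.33e-14, and it compares these libraries and not the treatments. CMT and IM differed by 0.39 (-0.02 to 0.80).

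CLDN11 had a similar low in CM. CLDN11, known from myelin and from the blood-testis barrier, had 52.5, 16.7 and 30.6 UQRPKM from 56, 17 and 32 reads. IM was highest and CM lowest, with -1.65 (-2.53 to -0.85) in CM versus IM and -0.78 (-1.45 to -0.13) in CMT versus IM. The difference of CMT from CM, 0.87 (-0.02 to 1.81), was called by its fold but not separated by its counts. CLDN10, a channel-forming claudin, had the opposite order, with 6.69, 19.4 and 14.7 UQRPKM from 13, 36 and 28 reads. IM was the low library, with 1.54 (0.59 to 2.58) in CM versus IM and 1.14 (0.14 to 2.21) in CMT versus IM.

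Several mesothelial and epithelial markers had another order of libraries than CLDN4. MSLN, the mesothelial surface protein mesothelin, had 6.47, 15.4 and 59.5 UQRPKM in IM, CM and CMT, and KRT8, a keratin of simple epithelia, had 51.2, 102 and 307. CM lay between IM and CMT for both, as it did for UPK3B at 4.93, 27.4 and 46.4. KRT14, a keratin of stratified epithelia, had 51.2, 0 and 1.27 UQRPKM, and EPCAM rested on 2, 2 and 1 reads. In this list 5 of 7 tested genes were called higher in CM than in IM, beside 8.38% of all mRNA genes. In CMT versus CM, 6 of 7 were called higher and 1 lower, beside 9.53% and 9.97%. In CMT versus IM, 6 of 9 were called higher and 3 lower, beside 8.81% and 11.9%, so the list did not share 1 order. KRT14 and KRT5, at 0 in CM, could not be tested in the comparisons with CM. Their CM library was the lowest, as for CLDN4, but KRT14 was also low in CMT, where CLDN4 was highest. CLDN10 was higher in CM as MSLN, KRT8 and UPK3B were, and the part of mesothelial cells in its values was not tested. CLDN3, with 1, 6 and 5 reads, and CLDN7, with 1, 1 and 6 reads, were called by their fold, but their intervals included 0. CLDN19, with 8, 4 and 6 reads, was called lower in CM versus IM by its fold, at -0.93 (-3.11 to 0.97).

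Without CLDN5, the other 21 claudins summed to 158, 115 and 167 UQRPKM, with -0.46 (-0.72 to -0.20) for CM and 0.08 (-0.16 to 0.32) for CMT against IM, and 0.55 (0.29 to 0.80) for CMT against CM. CLDN6, CLDN20, CLDN22 and CLDN24 had at most 2 reads in any library. CLDN8, CLDN9, CLDN14, CLDN15, CLDN16, CLDN17, CLDN18, CLDN23 and CLDN25 were listed at 0 throughout. A listing at 0 need not mean that a gene is silent. FLNA and 6 of 66 ribosomal protein genes were listed at 0 as well.

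**Figure D5:**
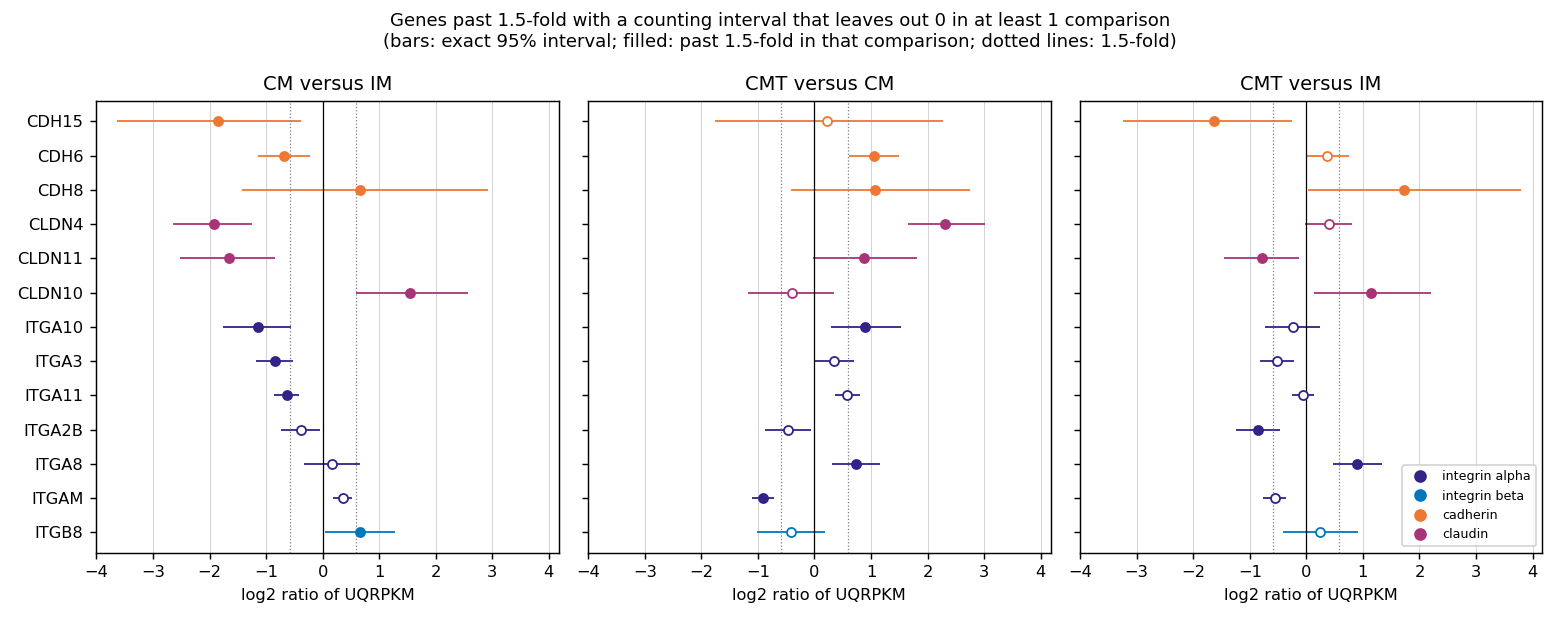
log2 ratio of UQRPKM with exact 95% intervals for the 13 genes past 1.5-fold with an interval that leaves out 0 in at least 1 comparison, 1 panel per comparison, with filled points where the gene passes 1.5-fold. CLDN4, CLDN11, CDH6, ITGA3, ITGA10 and ITGA11 lie left of 0 in CM versus IM and right of 0 in CMT versus CM, and CDH15 lies left of 0 in both comparisons with IM.

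Of the 42 genes, 8 were called and also passed the exact binomial test on reads in CM versus IM, where 10.1% of all tested genes did, 5.76% lower and 4.38% higher. They were CLDN4, CLDN11, CDH15, CDH6, ITGA3, ITGA10 and ITGA11, which were lower, and CLDN10, which was higher. In CMT versus CM, CLDN4, CDH6, ITGA10 and ITGA8 were higher and ITGAM lower, 5 of 42 beside a background of 10.6%, 5.06% higher and 5.56% lower. In CMT versus IM, ITGA8 was higher and CLDN11, CDH15 and ITGA2B lower, 4 of 42 beside 11.9%, 4.58% higher and 7.37% lower. The comparisons share libraries, so a low or high value in CM alone enters both CM versus IM and CMT versus CM. The share of these genes that passed both criteria was above the background in CM against IM, and near it or below it otherwise.

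Of 23 genes for proteins that tie integrins to actin at focal adhesions, 1 was called higher and 1 lower in CM versus IM, beside 8.38% and 10.4% of all mRNA genes. FERMT1, an epithelial kindlin that activates integrins, had 29.4, 18.5 and 23.8 UQRPKM and was lower at -0.67 (-1.04 to -0.30). NEXN, an actin-binding protein of muscle, had 87.4, 156 and 84.8 UQRPKM and was higher at 0.84 (0.61 to 1.07). TNS1, a tensin at fibrillar adhesions, had 979, 1179.8 and 627 UQRPKM, with -0.91 (-0.99 to -0.83) in CMT versus CM. NEXN was also lower in that comparison, at -0.88 (-1.11 to -0.64). These were the 2 genes called there, beside 9.97% lower and 9.53% higher of all mRNA genes. In CMT versus IM, TNS1 and ACTN1 were the 2 genes called, both lower, beside 11.9% lower and 8.81% higher. The list had a median of -0.15 for CM and -0.18 for CMT against IM, and -0.13 for CMT against CM.

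Of 16 integrin ligands tested in CM versus IM, FGA and VTN were called higher and SPP1, TNXB and TNC lower, 5 in all beside 18.8% of all mRNA genes. SPP1, or osteopontin, a ligand of alphaV integrins, had 204, 100.2 and 187 UQRPKM, with -1.03 (-1.26 to -0.79) in CM versus IM and 0.90 (0.67 to 1.14) in CMT versus CM. TNC, or tenascin-C, had 14.6, 9.44 and 16.1 UQRPKM and the same low in CM. VTN, or vitronectin, had 30.1, 323 and 16.3 UQRPKM and FGA 2.21, 241 and 0. Both are plasma proteins made mainly by hepatocytes, and ALB stood at 2910.1 UQRPKM in the same CM library. In CMT versus CM, 3 ligands were called higher and 4 lower, beside 9.53% and 9.97%. THBS1, or thrombospondin, had 257, 195 and 469 UQRPKM and was higher in CMT at 1.27 (1.18 to 1.35). NPNT, the ligand of the ITGA8 receptor, had 27.0, 26.0 and 14.4 UQRPKM from 48, 44 and 25 reads. It was lowest in the library where ITGA8 was highest, with -0.91 (-1.67 to -0.19) in CMT versus IM. Its -0.86 (-1.63 to -0.12) in CMT versus CM did not pass the exact binomial test.

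The catenin genes CTNNB1 and CTNNA1 differed by less than 1.5-fold between the libraries. CTNNB1, or beta-catenin, had 1134, 1097 and 1096 UQRPKM and CTNNA1 had 1458, 1261 and 1261. Of 10 catenins and partners tested in CM versus IM, PVRL1 alone was called, lower at -1.02 (-2.01 to -0.10), beside 10.4% of all mRNA genes. All 10 log2 ratios were below 0 with a median of -0.20. In CMT versus CM, 2 of 11 were called higher and 1 lower, beside 9.53% and 9.97%. In CMT versus IM, 1 of 12 was called lower, beside 11.9%. None of these calls passed the exact binomial test. Among 13 other cadherin superfamily genes tested, 3 were called lower and none higher in CM versus IM, beside 10.4% and 8.38% of all mRNA genes. They were CLSTN2, PCDH19 and FAT1, and FAT1, a giant protocadherin, had 185, 122 and 139 UQRPKM with -0.60 (-0.67 to -0.53).

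Among 15 tight junction partners tested in CM versus IM, 1 was called higher and 2 lower, beside the same background, of which MARVELD2 rested on at most 8 reads. ESAM, an adhesion molecule of endothelial junctions, had 530, 250.4 and 291 UQRPKM in the IM, CM and CMT libraries. It was lower in both castrated groups, at -1.08 (-1.22 to -0.95) and -0.86 (-0.99 to -0.74). CGN, or cingulin, which links epithelial tight junctions to actin, had 1.59, 5.98 and 7.85 UQRPKM from 12, 43 and 58 reads. It was higher in both castrated groups, at 1.91 (0.96 to 2.97) and 2.30 (1.39 to 3.34), in the order of libraries that MSLN and KRT8 had. OCLN, or occludin, stayed level at 109, 105 and 97.9 UQRPKM.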

How the data were processed

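Reads were trimmed of adaptors and filtered for quality by the authors, then mapped to the Sscrofa10.2 pig genome with MapSplice. The authors deposited 1 RPKM value per gene and library, in which an upper quartile replaces the total reads (UQRPKM). The read counter, the annotation and the treatment of shared reads are not given in the sources used here. Each library was placed in its group by its title, and the pools hold between 4 and 6 pigs per the labels.

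Whole reads were recovered from the deposited RPKM values. The constant of the unit, 100000, is not stated and was assumed because it gave plausible gene lengths and read totals, and all reads, intervals and exact tests rest on it. The upper quartiles were taken from the commonest ratio between low values, and were 149 for IM, 142 for CM and 146 for CMT. The shortest gene length up to 120000 bases that made all values whole within a relative tolerance of 1e-08 was used. This succeeded for 100% of 20838 genes above 0. Where the reads of a gene share a common factor they are too low and the intervals too wide, while UQRPKM values and ratios are not affected. Recovery and calls were tested on simulated data. Calls used 1.5-fold and 1 UQRPKM in both libraries, as in the study's methods but without its test, and were made over all 22826 mRNA genes. Intervals of a log2 ratio are exact Clopper-Pearson intervals of the reads. Intervals of sums and of ratios between genes use Poisson errors of the reads by the delta method. The exact binomial test on reads was adjusted by Benjamini-Hochberg over all mRNA genes with reads. LOC identifiers in the gene lists were named through the RefSeq gene table of Sscrofa11.1. Gene positions are not given because that table describes another build than the mapping. Sequences were not used here.

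The genes described and the gene lists were chosen with earlier results of these data known. Values in every library are given for each gene called in a comparison whose interval left out 0 and for the 3 highest genes of each family. For the lists of partners, at most 4 called genes per list and comparison are named. A few partners that were not called (CTNNB1, CTNNA1, OCLN) and markers were named after their values were seen. Python 3.11.15, numpy 2.4.6, scipy 1.17.1, pandas 2.3.3, numba 0.67.0 and matplotlib 3.10.9 were used. Other thresholds, scalings, a pseudocount and tests were tried as alternatives.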

Additional observations from a re-analysis of the deposited data

How the results depend on the processing

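Each group is 1 library, so no replicate could be left out. No paired analysis was possible because each group has a single library and the labels give no shared replicate numbers. The number of genes called depended on the rule. Counts are given for CM against IM, for CMT against CM and for CMT against IM, in that order. The 13, 10 and 8 calls became 6, 5 and 5 at 2-fold, 6, 5 and 4 with a floor of 5 UQRPKM, and 8, 5 and 4 with the exact binomial test on reads. With the MA-plot formula of DEGSeq on UQRPKM values they became 2, 2 and 0, and with at least 100 reads, a choice made after seeing the data, 5, 5 and 2. The stricter floor and the read minimum leave fewer genes to call. No floor, a pseudocount of 1 UQRPKM, both other scalings and a minimum of 10 reads left the counts within 1.5 times. With either other scaling, ITGA11 in CMT versus CM came to lie past 1.5-fold, which gave 11 calls, and with the median-ratio scaling its call in CM versus IM was lost, which left 12. With the pseudocount, ITGB8 (0.53) and CDH8 (0.49) lost their calls in CM versus IM, which left 11. No called log2 ratio of a gene given in full changed sign under the pseudocount or the scalings, and 2 values, both of ITGB1 under the median-ratio scaling, moved beyond their counting interval. At 100 reads or more, differences well under 1.5-fold were resolved for the most abundant genes, whereas CLDN3, CLDN7 and CDH18, with at most 6 reads in any library, had intervals that included 0 in all comparisons.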

Other observations

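Genes of these families also occur under LOC identifiers, which the names did not match. By RefSeq gene ID, LOC100626336 is ITGAD, a leukocyte alpha chain, and it had 21.6, 5.66 and 10.6 UQRPKM in the IM, CM and CMT libraries, from 56, 14 and 27 reads. It was lowest in CM, where ITGAM was highest. LOC100738907, deposited as miscRNA, is ITGAX, another leukocyte alpha chain, with 19, 10 and 19 reads. LOC100626354, or CDH4, had 2, 2 and 3 reads.

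The lymphatic endothelial list, with 5 of 5 genes found, summed to 403, 395 and 543 UQRPKM. All 5 log2 ratios were above 0 in CMT versus CM, between 0.40 and 0.52, so none reached 1.5-fold. In CMT versus IM, PROX1 and PDPN were called higher, at 1.03 and 0.73, beside 8.81% of all mRNA genes. Only 1 of them also passed the exact binomial test, beside 4.58%. PDPN, or podoplanin, which is also made by mesothelium and fibroblasts, had 150.2, 175 and 249.6 UQRPKM, and LYVE1, a hyaluronan receptor of lymphatic vessels, had 202, 178 and 234.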
